A study of Mus musculus with 8 samples.

Results

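The genes described here are 33 macrophage and leukocyte genes, chosen by name and with no threshold on their values. For each gene the spot with the highest mean signal over the 8 arrays was read, and all 33 genes were measured, among 24304 genes in all. They were compared between cultured embryonic mouse lungs given IQ1 and control lungs after 9 h and after 24 h, and between control lungs at 24 h and at 9 h. Lungs of C57bl/6J embryos at E12.5 were kept as explants in serum-containing medium with IQ1 at 10 µM or with vehicle, and RNA of the whole organ was hybridised to Agilent oligonucleotide arrays. IQ1 is a small molecule that acts on the use of β-catenin coactivators. The groups were IQ1 at 9 h (3 arrays), control at 9 h (3 arrays), IQ1 at 24 h (1 array) and control at 24 h (1 array). The paper's own array analysis at 9 h counts fewer controls than the 3 read here, and it does not say which it used. The design text calls the replicates biological, and the lungs cultured for 24 h were pooled. The sample descriptions of the treated lungs name FGFR2b inhibition as well, without a further agent in the treatment label, and grouping followed that label. The labels name PBS as the vehicle whereas the methods dissolve IQ1 in DMSO, so solvent and IQ1 cannot be told apart if the solvents differed.

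Macrophages reach the lung early in embryonic life, first from the yolk sac and later by way of fetal liver monocytes, and persist in the mesenchyme around the branching airways. Their survival depends on the receptor Csf1r and their identity on the transcription factor PU.1, the product of Spi1. They clear dying cells with the help of complement C1q, of scavenger receptors, and of surface receptors that signal through the adaptors Tyrobp and Fcer1g, whose cytoplasmic ITAM motifs recruit tyrosine kinases. Several of the 33 genes, such as Ptprc, Itgb2, Cd52, Cd53, Coro1a and Rac2, are used by most white blood cells and do not single out macrophages.

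All values are quantile-normalised log2 intensities of single spots, so a difference of 1 is 2-fold and every difference is relative to the other genes of the same array. The array median, 6.29, and lower quartile, 4.34, were read from 1 array, since quantile normalisation brings all arrays to the same distribution. The number of arrays limits the precision. One control array at 9 h, replicate 2, differed widely from the rest. Across spots it correlated with them at only 0.583 to 0.602, while pairs among the remaining 7 arrays reached 0.953 to 0.982. For this reason the counts over the members and most single values at 9 h are given with all arrays and again without control replicate 2, and "control replicate 2" always means this array. With all arrays the median difference of all genes was 0.16 between IQ1 and control at 9 h and 0.15 between control lungs at 24 h and 9 h. It was 0.01 in both comparisons without control replicate 2, and member values are to be read against these medians.

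The macrophage label was checked against the defining markers on the arrays. Of the 33 genes, 17 had a mean above the median gene mean of 6.72, as 12152 of all 24304 genes did by definition. Among the 17 were Ptprc, Csf1r, Cx3cr1, Trem2, Tyrobp, C1qb, Cd68 and Pf4. Adgre1 (6.69), C1qa (6.37), Mrc1 (5.56) and Fcgr1 (5.53) were among those below it. Only Cd163, a receptor for haptoglobin-haemoglobin complexes that marks some mature macrophages, had a mean (3.70) below the lower quartile of the arrays. Of all 24304 genes, 4416 had such a mean. These means run over all 8 arrays, and spot-wise background was not used here. No detection call was therefore made, which matters most for dim genes such as Spi1 (mean 4.90) or Cybb (mean 4.88). Because RNA came from whole lungs, a change in the number of macrophages and a change in RNA per macrophage cannot be told apart.

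Promoter sequences are shown for 4 of the members that had all IQ1 arrays above all control arrays at 9 h and were also higher with IQ1 at 24 h. All 4 hold the motif described here, and they had the largest differences of the members at 9 h with all arrays. Fcgr1, Fcgr3 and Ctss met the same conditions and hold the motif, but are not shown. The sequences are from RefSeq on the GRCm38.p6 build, from 250 bases before to 50 bases after the transcript start. Capitals mark the PU.1 core GAGGAAG, here found on the opposite strand as CTTCCTC. The Pf4 promoter lies at chr5:90772185-90772484 (plus strand), Mrc1 at chr2:14229164-14229463 (plus strand), Trem2 at chr17:48346151-48346450 (plus strand) and C1qc at chr4:136892865-136893164 (minus strand).
Pf4: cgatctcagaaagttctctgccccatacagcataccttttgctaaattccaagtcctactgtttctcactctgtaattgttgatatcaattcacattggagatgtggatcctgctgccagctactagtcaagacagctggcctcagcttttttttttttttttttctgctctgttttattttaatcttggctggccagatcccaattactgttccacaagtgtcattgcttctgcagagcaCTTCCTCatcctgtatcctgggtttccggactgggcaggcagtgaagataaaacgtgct
Mrc1: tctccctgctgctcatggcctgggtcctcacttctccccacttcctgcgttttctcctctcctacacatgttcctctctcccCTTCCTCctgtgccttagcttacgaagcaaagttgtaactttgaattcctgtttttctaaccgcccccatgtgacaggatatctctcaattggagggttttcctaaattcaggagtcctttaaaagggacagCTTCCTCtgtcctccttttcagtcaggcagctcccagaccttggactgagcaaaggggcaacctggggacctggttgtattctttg
Trem2: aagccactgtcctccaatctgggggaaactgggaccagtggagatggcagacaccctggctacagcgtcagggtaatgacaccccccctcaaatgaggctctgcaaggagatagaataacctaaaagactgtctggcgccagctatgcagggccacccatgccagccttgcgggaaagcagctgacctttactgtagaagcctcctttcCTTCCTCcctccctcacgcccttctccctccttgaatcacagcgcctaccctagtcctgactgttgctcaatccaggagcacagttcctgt
C1qc: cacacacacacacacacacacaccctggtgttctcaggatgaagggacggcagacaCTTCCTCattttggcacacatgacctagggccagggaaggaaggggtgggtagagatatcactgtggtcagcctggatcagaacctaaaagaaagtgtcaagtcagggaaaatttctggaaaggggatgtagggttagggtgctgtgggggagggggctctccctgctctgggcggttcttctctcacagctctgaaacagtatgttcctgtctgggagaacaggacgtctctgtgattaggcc
The motif was searched on both strands in the promoters of the 23 of 33 members that the RefSeq table held. It was present in 11 of 27 member promoters (40.7%), against 4477 of 32851 promoters in the whole table (13.6%). Counted by gene, 10 of 23 members (43.5%) had a promoter with the motif, against 4152 of 27025 genes (15.4%). The members were C1qc, Cd53, Ctss, Fcgr1, Fcgr3, Itgam, Laptm5, Mrc1, Pf4 and Trem2, with 2 matches each in Mrc1 and Itgam. A match of 7 letters is a description of the sequence and not evidence of binding.

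The first comparison asked how the macrophage and leukocyte genes stood after 9 h of IQ1. Most members read higher in IQ1 lungs than in control lungs. With all arrays C1qc (2.37), Trem2 (2.16), Pf4 (2.06) and Mrc1 (1.99) had the highest differences. Without control replicate 2 these were Ly86 (1.93), Lyz2 (1.64), Pf4 (1.52) and C1qc (1.42). With all arrays 24 of 33 members were higher and 9 lower, where 57.2% of all genes were higher. The median member difference was 0.58 (range -2.22 to 2.37), against 0.16 over all genes. When control replicate 2 was left out, 28 members were higher and 5 lower, where 51.6% of all genes were higher, and the median was 0.42 (range -0.33 to 1.93), against 0.01 over all genes.

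No member passed the test at 9 h. In limma's moderated test with Benjamini-Hochberg adjustment over 24304 genes, 0 genes (0%) had an adjusted p under 0.05 with all arrays, the smallest being 0.627, and 490 had an unadjusted p under 0.05. Of the members, 6 had an unadjusted p under 0.05, all of them higher in IQ1 lungs, where 1.13% of all genes met this in the higher and 0.889% in the lower direction. The test called 3 genes without control replicate 2 (0.0123%), none of them a member. Then 11 members had an unadjusted p under 0.05, again all higher, where the background was 4.24% higher and 4.14% lower.

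Array by array, the groups were also set against each other. All 3 IQ1 arrays lay above all 3 control arrays for 10 members (8.33% of all genes did so), namely Adgre1, C1qc, Tyrobp, Fcer1g, Trem2, Fcgr1, Fcgr3, Mrc1, Ctss and Pf4. No member had all IQ1 arrays below all control arrays, which 5.25% of all genes had. The separated members numbered 14 when control replicate 2 was left out (background 13.1%), the 4 added being Ly86, Lyz2, Cd53 and Aif1, and still no member was separated in the lower direction (background 13.1%). The median level of the 33 members was 7.63, 6.85 and 7.04 on the IQ1 arrays at 9 h, against 6.44, 6.40 and 6.12 on the control arrays. The arrays of the 2 groups did not overlap in this median. They did not overlap in the median of all genes either, which lay closer together. It was 6.83, 6.82 and 6.81 with IQ1 against 6.78, 6.66 and 6.78 in control lungs. Control replicate 2 lay inside the range of the other control arrays in the members' median. Single members on that array nevertheless departed widely in both directions, such as Ly86 (11.27) and Cd68 (4.18). The log2 of the members' summed intensity, which the brightest spots set, did overlap, at 14.74, 15.15 and 15.12 with IQ1 against 14.90, 15.06 and 14.87 in control lungs.

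**Figure D1:**
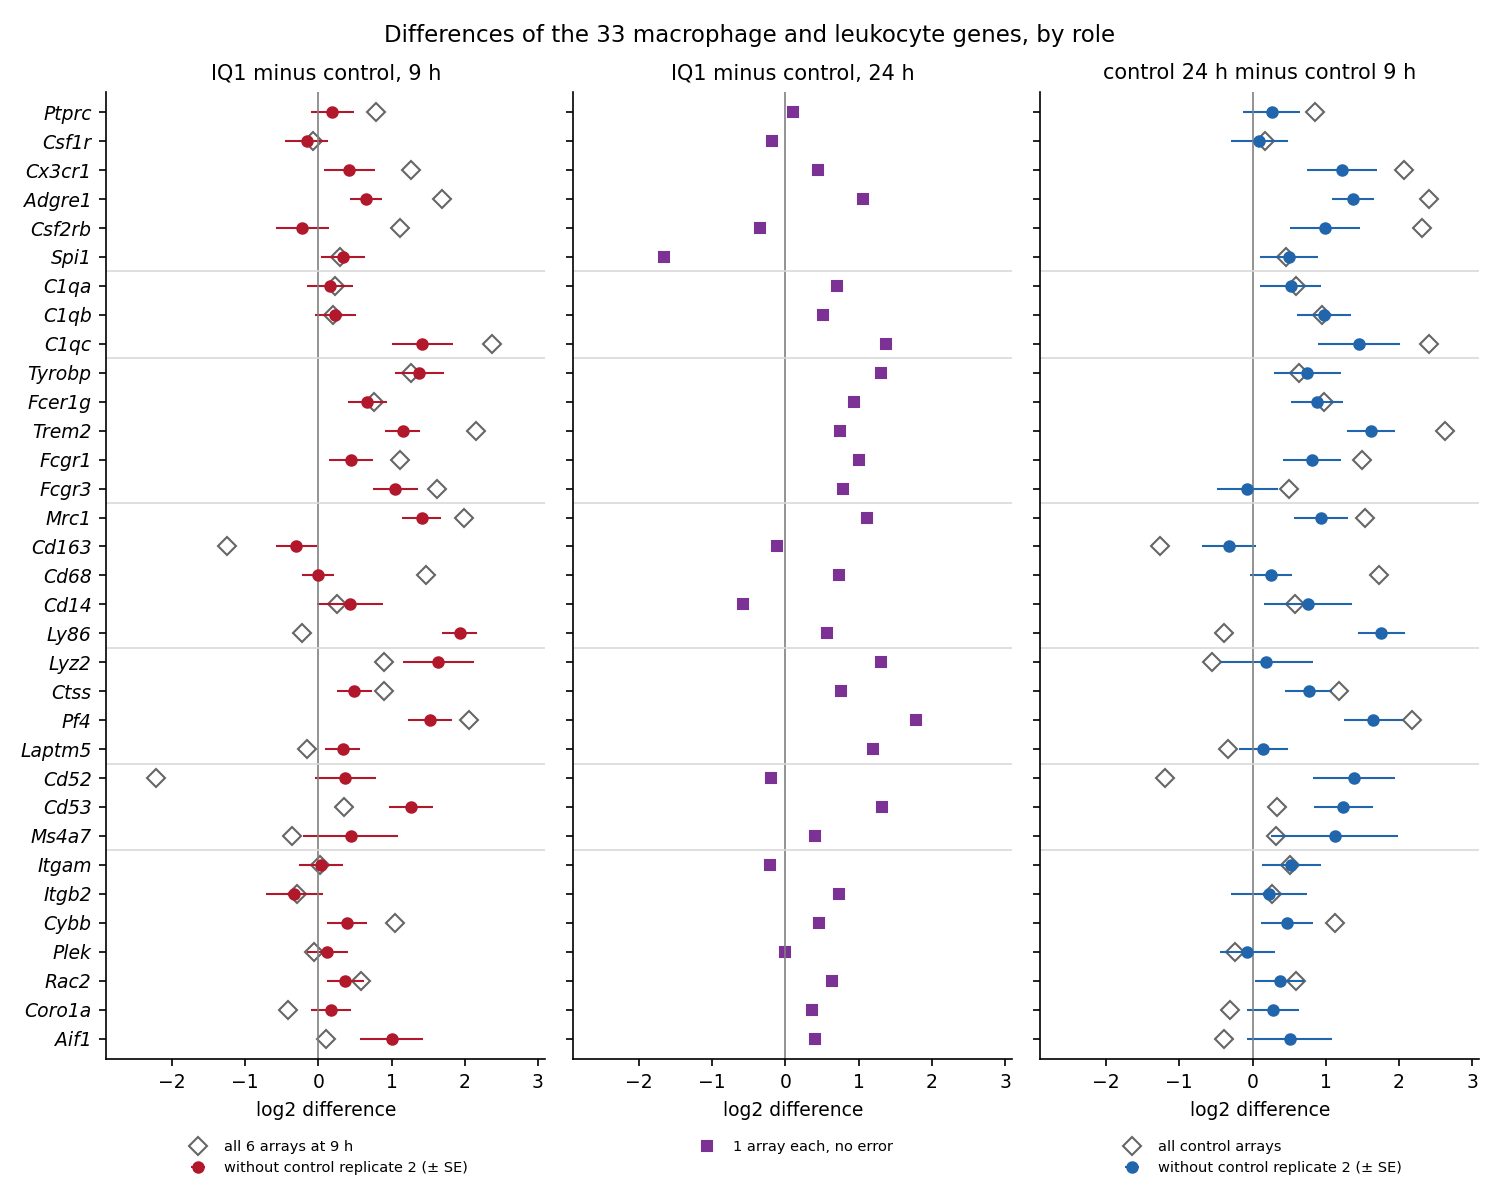
Log2 differences (x axis) of the 33 macrophage and leukocyte genes (y axis, grouped by role) for IQ1 minus control at 9 h, IQ1 minus control at 24 h, and control at 24 h minus control at 9 h. Open diamonds are fits with all arrays, filled circles are fits without control replicate 2 with their standard error, and squares are differences of 1 array each. Most points lie right of 0 in all 3 panels, and the exceptions include Spi1 at 24 h (-1.66).

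The second comparison set IQ1 against control after 24 h, with 1 array of pooled lungs each and hence no replicate check and no p-value. Again most members were higher with IQ1, led by Pf4, while Spi1 was lower. Of the members 25 were higher and 8 lower, where 51.4% of all genes were higher. The median member difference was 0.64 (range -1.66 to 1.78), against 0.02 over all genes. A difference of 1 or more was seen for 8 members (5.64% of all genes), namely Pf4, C1qc, Cd53, Tyrobp, Lyz2, Laptm5, Mrc1 and Adgre1, with Fcgr1 just under it. A difference of -1 or less was seen only for Spi1 among the members (4.97% of all genes).

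The arrays at 9 h and 24 h are separate, so the IQ1 differences at the 2 times share no array. Each of the 14 members with all IQ1 arrays above the remaining control arrays at 9 h, without control replicate 2, was also higher with IQ1 at 24 h. Among all genes, 3182 were separated in this way at 9 h. Of these 3182 genes, 2124 were also higher at 24 h (8.74% of all genes). For 7 of the 14 members the 24 h difference was 1 or more, as it was for 325 of the 3182 genes (1.34% of all genes). The 7 members were Adgre1, C1qc, Tyrobp, Mrc1, Lyz2, Pf4 and Cd53. A limma test of the difference between the IQ1 effects at 24 h and at 9 h, made in the same fit with the lone 24 h arrays taken to vary like those at 9 h, called 0 genes. For Spi1 the effect at 24 h differed from that at 9 h by -1.96 with all arrays and by -2.00 without control replicate 2. For Ly86 it differed by 0.80 with all arrays and by -1.36 without control replicate 2. Neither gene was called, and both values rest on 1 array a group at 24 h.

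The third comparison followed the genes in control lungs over culture. The 24 h control lungs read higher than the 9 h control lungs for most members, again with Trem2, C1qc, Adgre1 and Pf4 among the highest. With all arrays 25 of 33 members were higher at 24 h, where 56.1% of all genes were, and the median was 0.59 (range -1.27 to 2.63), against 0.15 over all genes. With control replicate 2 left out, 30 members were higher, where 50.4% of all genes were, and the median was 0.75 (range -0.32 to 1.76), against 0.01. The 24 h array lay above both remaining 9 h control arrays for 28 members (39.9% of all genes) and below both for 1, Cd163. With all arrays it lay above all 3 control arrays for 21 members (27.2% of all genes).

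Limma's test called 0 genes (0%) between control lungs at 24 h and 9 h with all arrays, the smallest adjusted p being 0.925, with 427 genes at an unadjusted p under 0.05. Only Pf4 among the members had an unadjusted p under 0.05 (1.18% of all genes higher, 0.576% lower). Leaving out control replicate 2, it called 2 genes (0.00823%), none a member, and 11 members had an unadjusted p under 0.05, all higher at 24 h (5.36% of all genes higher, 5.11% lower). The lone 24 h array is assumed to vary like those at 9 h. The labels give the 2 times as separate experiments, so culture time and experiment cannot be told apart. This comparison shares its control arrays with both IQ1 comparisons, and its values are set beside theirs below without further comparison.

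The genes that define macrophages and their lineage differed in direction among themselves. Of these 6 genes, 5 were higher and 1 lower with IQ1 at 9 h with all arrays (median 0.95), 4 were higher and 2 lower without control replicate 2 (median 0.26), and 3 were higher and 3 lower at 24 h (median -0.04). Adgre1 encodes the adhesion receptor by which mouse macrophages are usually recognised. It read 7.06, 7.09 and 6.89 on the IQ1 arrays at 9 h, against 6.48, 3.24 and 6.24 on the control arrays. At 24 h it read 8.79 with IQ1 and 7.73 in control lungs. The groups at 9 h did not overlap, and the 24 h arrays were both above every 9 h array. The difference at 9 h was 1.69 ± 0.90 (SE, n = 3 each, limma adjusted p = 0.73) with all arrays and 0.65 ± 0.22 (adjusted p = 0.517) without control replicate 2. Control lungs were higher at 24 h than at 9 h by 1.37 ± 0.29 (adjusted p = 0.303) without that array and by 2.41 ± 1.27 (adjusted p = 0.925) with it.

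Ptprc encodes CD45, a tyrosine phosphatase on the surface of white blood cells. It read 8.19, 8.95 and 8.47 on the IQ1 arrays at 9 h, against 8.45, 6.54 and 8.24 on the control arrays, and 8.71 with IQ1 against 8.61 in control lungs at 24 h. Apart from control replicate 2 all arrays lay close together on this spot, the brightest of 7. Its difference at 9 h was 0.79 ± 0.61 (limma adjusted p = 0.73) with all arrays and 0.19 ± 0.29 (adjusted p = 0.927) without control replicate 2. The next brightest Ptprc spot had a mean of 6.79 over the 7 arrays other than control replicate 2. That spot differed by -0.18 at 9 h without control replicate 2 and by 1.23 at 24 h. Csf1r, the receptor for the growth factors CSF1 and IL-34, was read by a very bright spot. Its values were 13.04, 13.65 and 13.76 with IQ1 at 9 h, against 13.64, 13.38 and 13.64 in control lungs, and 13.55 with IQ1 against 13.73 in control lungs at 24 h. This spot read between 13.04 and 13.76 on all arrays, including control replicate 2, and its difference at 9 h was -0.07 ± 0.38 (limma adjusted p = 0.932), or -0.16 ± 0.29 (adjusted p = 0.939) without control replicate 2. A second, dimmer Csf1r spot had a mean of 7.79 over the 7 arrays other than control replicate 2, and was higher with IQ1 by 0.55 at 9 h and by 0.32 at 24 h.

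Cx3cr1, the fractalkine receptor of macrophages and microglia, overlapped between groups. It read 9.07, 8.35 and 9.37 with IQ1 at 9 h, against 8.70, 5.96 and 8.31 in control lungs, and 10.17 with IQ1 against 9.72 in control lungs at 24 h. The IQ1 difference at 9 h was 1.27 ± 0.80 (limma adjusted p = 0.73) with all arrays and 0.42 ± 0.35 (adjusted p = 0.823) without control replicate 2, while control lungs at 24 h were above those at 9 h by 1.22 ± 0.48 (adjusted p = 0.465) without that array and by 2.07 ± 1.13 (adjusted p = 0.925) with it. Spi1 was dim on every array. It read 4.82, 5.09 and 5.63 with IQ1 at 9 h, against 4.90, 4.97 and 4.78 in control lungs, so the groups overlapped. At 24 h it read 3.68 with IQ1, the lowest of its 8 values, against 5.34 in control lungs. The difference was 0.30 ± 0.38 (limma adjusted p = 0.747) at 9 h, 0.34 ± 0.30 (adjusted p = 0.833) without control replicate 2, and -1.66 at 24 h, the 24 h value resting on 1 array each and on a gene below the array median of 6.29. Csf2rb, the shared β chain of the receptors for IL-3, IL-5 and GM-CSF, was lower with IQ1 by 0.22 ± 0.36 at 9 h without control replicate 2 and by 0.35 at 24 h, and higher by 1.11 ± 1.14 at 9 h with all arrays. The mouse genome holds a near copy of it, Csf2rb2, and whether its spots tell the copies apart is uncertain.

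**Figure D2:**
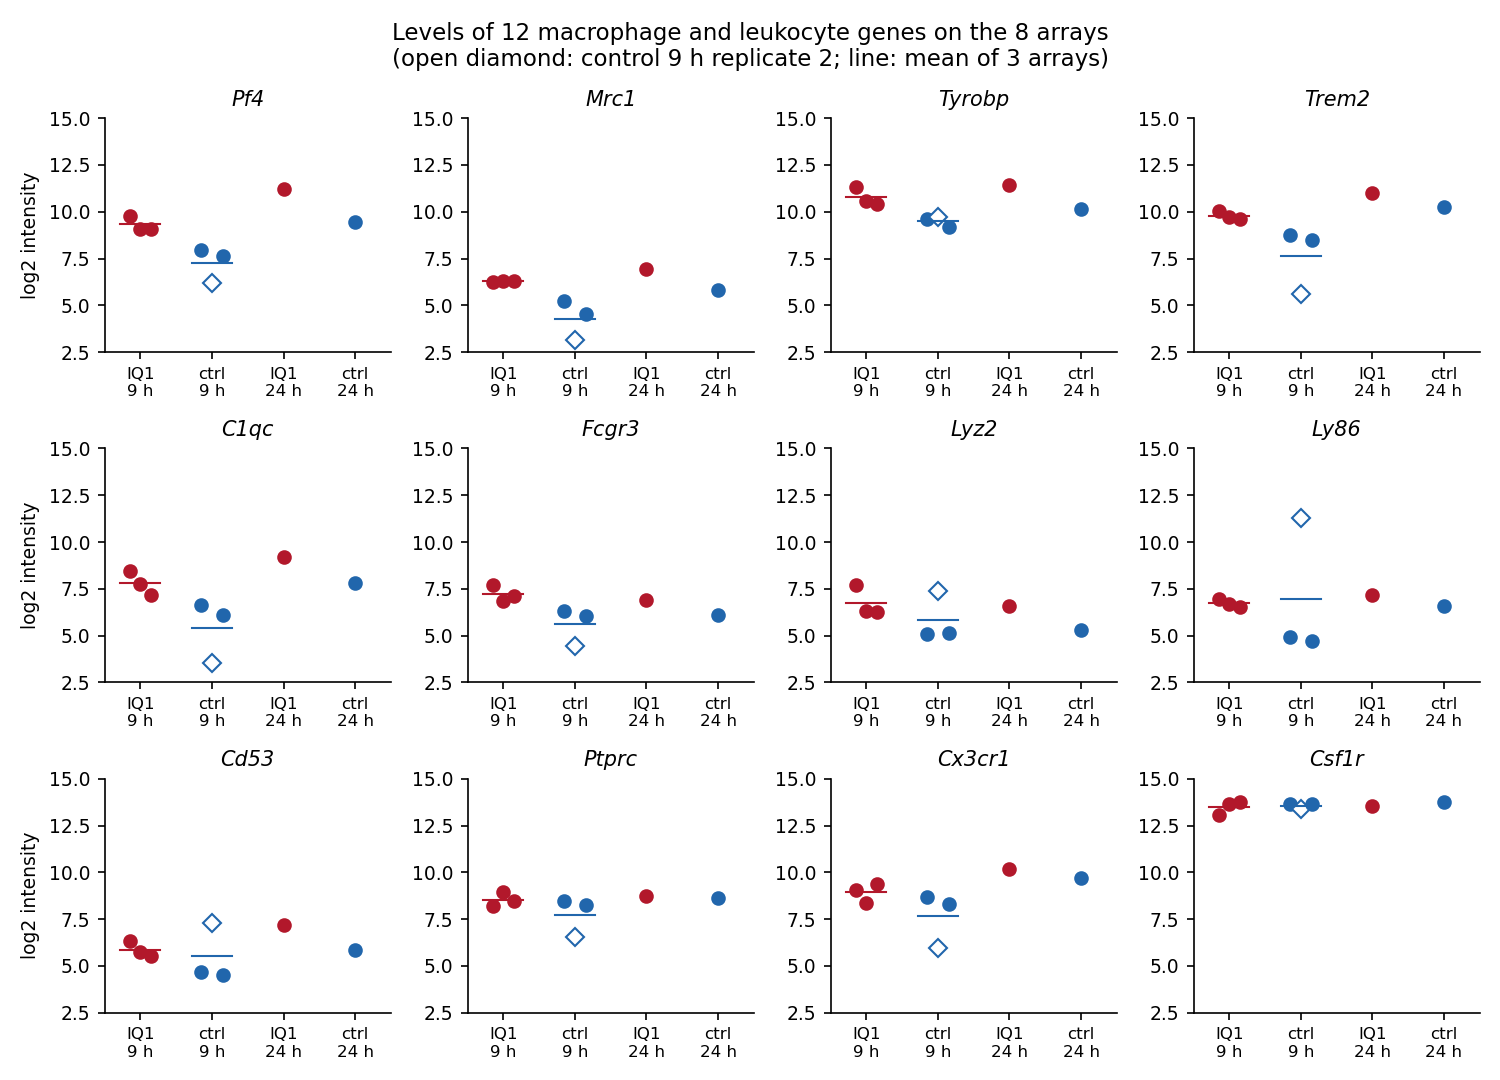
Log2 intensity (y axis) of 12 of the members on each of the 8 arrays, by group (x axis: IQ1 and control at 9 h, IQ1 and control at 24 h). Points are arrays, the open diamond is control replicate 2 at 9 h and lines are means of 3 arrays. Pf4, Mrc1, Tyrobp, Trem2, C1qc and Fcgr3 had all 3 IQ1 arrays above all 3 control arrays at 9 h, whereas control replicate 2 was the highest array for Ly86 (11.27) and Cd53 (7.32), and Csf1r stayed between 13.04 and 13.76.

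The 3 chains of complement C1q, which tags dying cells and synapses for uptake and is made largely by macrophages, were all higher with IQ1 in both comparisons. The C1qc chain had the largest differences. It read 8.46, 7.77 and 7.16 with IQ1 at 9 h, against 6.65, 3.53 and 6.09 in control lungs, with no overlap. At 24 h it read 9.20 with IQ1 and 7.83 in control lungs, a difference of 1.37. The 9 h difference was 2.37 ± 0.89 (limma adjusted p = 0.73) with all arrays and 1.42 ± 0.42 (adjusted p = 0.462) without control replicate 2. C1qa and C1qb differed by less at 9 h, by 0.23 ± 0.39 and 0.20 ± 0.37 with all arrays and by 0.16 ± 0.31 and 0.23 ± 0.28 without control replicate 2, and their groups overlapped. At 24 h their differences were 0.70 and 0.51. The 3 chains assemble in equal parts into 1 protein, yet their spots differed in the size of the difference at 9 h. In control lungs C1qb was higher at 24 h than at 9 h by 0.98 ± 0.37 and C1qc by 1.46 ± 0.56 without control replicate 2 (limma adjusted p = 0.46 and 0.464).

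The ITAM adaptors and their receptors all read higher with IQ1. All 5 genes had every IQ1 array above every control array at 9 h, which 8.33% of all genes had. Their median difference at 9 h was 1.26 with all arrays and 1.05 without control replicate 2. All 5 were also higher with IQ1 at 24 h (median 0.94). Tyrobp, also called DAP12, pairs with TREM2 and related receptors. It read 11.33, 10.55 and 10.43 with IQ1 at 9 h, against 9.61, 9.74 and 9.18 in control lungs, and 11.44 with IQ1 against 10.14 in control lungs at 24 h. Control replicate 2 did not stand apart for this gene, and the difference of 1.26 ± 0.42 (limma adjusted p = 0.73) with all arrays became 1.38 ± 0.34 (adjusted p = 0.381) without it. Fcer1g, the γ chain of Fc receptors, also varied little within groups. Its values were 8.09, 8.19 and 7.70 with IQ1 at 9 h, against 7.53, 7.04 and 7.11 in control lungs, and 9.15 with IQ1 against 8.21 in control lungs at 24 h. The groups did not overlap, and the differences were 0.76 ± 0.37 (limma adjusted p = 0.73) at 9 h, 0.67 ± 0.27 (adjusted p = 0.588) without control replicate 2, and 0.94 at 24 h.

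Trem2, a lipid receptor of tissue macrophages and microglia, read 10.04, 9.71 and 9.59 with IQ1 at 9 h, against 8.75, 5.58 and 8.51 in control lungs. At 24 h it read 10.99 with IQ1 and 10.25 in control lungs. Control replicate 2 lay far below the other controls, which were still below every IQ1 array. The difference was 2.16 ± 0.89 (limma adjusted p = 0.73) with all arrays and 1.15 ± 0.24 (adjusted p = 0.308) without control replicate 2. Control lungs at 24 h were above those at 9 h by 1.62 ± 0.33 (adjusted p = 0.295) without that array and by 2.63 ± 1.26 (adjusted p = 0.925) with it. Fcgr3, a low-affinity IgG receptor, read 7.71, 6.85 and 7.12 with IQ1 at 9 h, against 6.29, 4.47 and 6.06 in control lungs, and 6.89 with IQ1 against 6.11 in control lungs at 24 h. Its groups did not overlap at 9 h (1.62 ± 0.60, limma adjusted p = 0.73, and 1.05 ± 0.31, adjusted p = 0.462, without control replicate 2), while the 24 h control value lay between the 9 h controls. A second Fcgr3 spot of similar brightness overlapped between groups at 9 h, with differences of -0.35 with all arrays and 0.02 without control replicate 2, and of 1.67 at 24 h. Fcgr1, the high-affinity IgG receptor, was higher with IQ1 by 1.12 ± 0.67 at 9 h with all arrays, by 0.44 ± 0.30 without control replicate 2, and by 1.00 at 24 h. Fcγ receptor genes are similar in sequence, so signal shared among them is uncertain.

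Scavenger and pattern receptors were mixed, with 3 of 5 higher at 9 h and 3 of 5 at 24 h. Mrc1, the mannose receptor CD206, which is also made by some endothelial cells, had almost equal values on the IQ1 arrays at 9 h, namely 6.27, 6.29 and 6.28. The control arrays read 5.22, 3.13 and 4.53. At 24 h Mrc1 read 6.94 with IQ1 and 5.82 in control lungs. No control array at either time reached an IQ1 array, and the difference at 9 h was 1.99 ± 0.59 (limma adjusted p = 0.73) with all arrays and 1.41 ± 0.27 (adjusted p = 0.272) without control replicate 2. Ly86, also called MD-1, is the secreted partner of the Toll-like receptor homologue RP105. It read 6.98, 6.71 and 6.55 with IQ1 at 9 h, against 4.93, 11.27 and 4.70 in control lungs, and 7.15 with IQ1 against 6.58 in control lungs at 24 h. Control replicate 2 alone was the highest of the 8 arrays, and the direction at 9 h rests on it. The difference was -0.22 ± 1.76 (limma adjusted p = 0.957) with all arrays and 1.93 ± 0.24 (adjusted p = 0.132) without control replicate 2, the smallest p of any member. Control lungs at 24 h differed from those at 9 h by -0.39 ± 2.49 (adjusted p = 0.968) with it and by 1.76 ± 0.32 (adjusted p = 0.257) without it.

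Cd68, a lysosomal glycoprotein of phagocytes, overlapped between groups at 9 h on its brightest spot. This spot read 8.55, 8.53 and 8.69 with IQ1, against 8.72, 4.18 and 8.46 in control lungs, and 9.57 with IQ1 against 8.85 in control lungs at 24 h. Its difference of 1.47 ± 1.23 with all arrays rested on control replicate 2: the remaining control arrays averaged 8.59, as the IQ1 arrays did. A second bright Cd68 spot read 8.48, 8.38 and 8.30 with IQ1 at 9 h, against 7.58, 4.77 and 7.69 in control lungs, without overlap, and differed by 0.75 without control replicate 2. The 2 spots thus disagree at 9 h. Cd14, the co-receptor for lipopolysaccharide, was higher with IQ1 by 0.25 ± 0.50 at 9 h with all arrays and by 0.43 ± 0.45 without control replicate 2, and lower by 0.58 at 24 h. Cd163 was lower with IQ1 by 1.25 ± 0.85 at 9 h with all arrays, by 0.30 ± 0.28 without control replicate 2, and by 0.12 at 24 h.

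Of the 4 lysosomal and secreted proteins, 3 were higher with IQ1 at 9 h with all arrays (median 0.89), and all 4 without control replicate 2 (median 1.01) and at 24 h (median 1.25). Pf4, the chemokine CXCL4, is known from platelets and megakaryocytes but is also made by fetal macrophages. It read 9.79, 9.07 and 9.10 with IQ1 at 9 h, against 7.93, 6.20 and 7.66 in control lungs, with no overlap. At 24 h it read 11.22 with IQ1 and 9.44 in control lungs, the largest difference of any member at that time (1.78). The difference at 9 h was 2.06 ± 0.57 (limma adjusted p = 0.73) with all arrays, the smallest p of any member there, and 1.52 ± 0.30 (adjusted p = 0.284) without control replicate 2. Control lungs at 24 h were above those at 9 h by 2.18 ± 0.81 (adjusted p = 0.925) with that array and by 1.65 ± 0.40 (adjusted p = 0.329) without it.

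Lyz2, the lysozyme of macrophages and other myeloid cells, read 7.69, 6.29 and 6.24 with IQ1 at 9 h, against 5.08, 7.36 and 5.13 in control lungs. At 24 h it read 6.59 with IQ1 and 5.29 in control lungs. All IQ1 arrays were above the control arrays except control replicate 2. The difference at 9 h was 0.89 ± 0.79 (limma adjusted p = 0.73) with all arrays and 1.64 ± 0.48 (adjusted p = 0.458) without control replicate 2. Unlike Pf4 it was not clearly higher in control lungs at 24 h than at 9 h (-0.56 ± 1.11, limma adjusted p = 0.925, and 0.19 ± 0.64, adjusted p = 0.937, without control replicate 2). Ctss, the lysosomal protease cathepsin S, was separated at 9 h, with a difference of 0.89 ± 0.48 with all arrays, 0.49 ± 0.24 without control replicate 2, and 0.76 at 24 h. Laptm5, a lysosomal membrane protein of blood cells, had differences of -0.16 ± 0.53 and 0.33 ± 0.24 at 9 h with and without control replicate 2, and of 1.20 at 24 h.

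The 3 leukocyte membrane proteins had a median of -0.36 at 9 h with all arrays and 0.44 without control replicate 2. Cd53 is a tetraspanin of most white blood cells. It read 6.32, 5.73 and 5.54 with IQ1 at 9 h, against 4.70, 7.32 and 4.51 in control lungs, and 7.17 with IQ1 against 5.85 in control lungs at 24 h. Control replicate 2 was the highest array and the other 9 h controls were the lowest. The difference at 9 h was 0.35 ± 0.82 (limma adjusted p = 0.843) with all arrays and 1.26 ± 0.30 (adjusted p = 0.356) without control replicate 2, and 1.32 at 24 h. Cd52, a small glycosylphosphatidylinositol-anchored protein of leukocytes, read 11.86 on control replicate 2 and between 3.72 and 5.48 on the other arrays. Its difference at 9 h was -2.22 ± 2.13 with all arrays and 0.37 ± 0.42 without control replicate 2, and -0.20 at 24 h. A second, dimmer Cd52 spot differed by -0.73 at 9 h without control replicate 2 and by -0.55 at 24 h. Ms4a7, a macrophage membrane protein that spans the membrane several times, overlapped between groups, with differences of -0.36 ± 0.91 and 0.44 ± 0.65 at 9 h with and without control replicate 2, and of 0.41 at 24 h.

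The integrin, oxidase and cytoskeleton genes had small differences, with a median of 0.02 with all arrays at 9 h, 0.17 without control replicate 2, and 0.41 at 24 h. Aif1, also called IBA1, is an actin-binding protein used to stain macrophages and microglia. It read 8.30, 7.35 and 7.05 with IQ1 at 9 h, against 6.23, 9.27 and 6.90 in control lungs, and 7.48 with IQ1 against 7.08 in control lungs at 24 h. The IQ1 arrays lay above all control arrays but control replicate 2. The difference at 9 h was 0.10 ± 0.86 (limma adjusted p = 0.96) with all arrays and 1.00 ± 0.43 (adjusted p = 0.612) without control replicate 2. Itgam and Itgb2, which together form the complement receptor Mac-1, differed by 0.02 ± 0.38 and -0.29 ± 0.44 at 9 h with all arrays, by 0.04 ± 0.30 and -0.33 ± 0.39 without control replicate 2, and by -0.21 and 0.73 at 24 h. Cybb, the catalytic subunit of the phagocyte oxidase, was higher by 1.04 ± 0.64 with all arrays at 9 h, by 0.39 ± 0.27 without control replicate 2, and by 0.46 at 24 h. The GTPase Rac2, the actin-binding protein Coro1a and the kinase substrate Plek had differences of 0.58, -0.41 and -0.06 at 9 h with all arrays. Without control replicate 2 their differences lay between 0.12 and 0.37, and none of the 3 was separated between groups. At 24 h they differed by 0.64, 0.36 and -0.00.

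The choice of spot bears on these values. The 33 members had 58 spots, with 16 members on 1 spot and 17 on 2 or more. At 9 h, without control replicate 2, 45 of the 58 spots were higher with IQ1 (49.7% of all named spots), with a median of 0.38, and 46 were higher at 24 h (49.8%), with a median of 0.51. All spots of a gene had the same sign for 8 of the 17 genes at 9 h and for 9 of the 17 at 24 h. Lyz2 had close values on both of its spots, 1.64 and 1.60 at 9 h and 1.30 and 1.65 at 24 h. For C1qc the bright spot (mean 7.59 over the 7 arrays) differed by 1.42 at 9 h and 1.37 at 24 h, whereas the dim spot (mean 4.59) differed by 0.49 and -0.26. The bright spots of Csf1r (mean 13.57) and Itgam (mean 13.76) lay far above the other spot of the same gene (means 7.79 and 5.78).

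**Figure D3:**
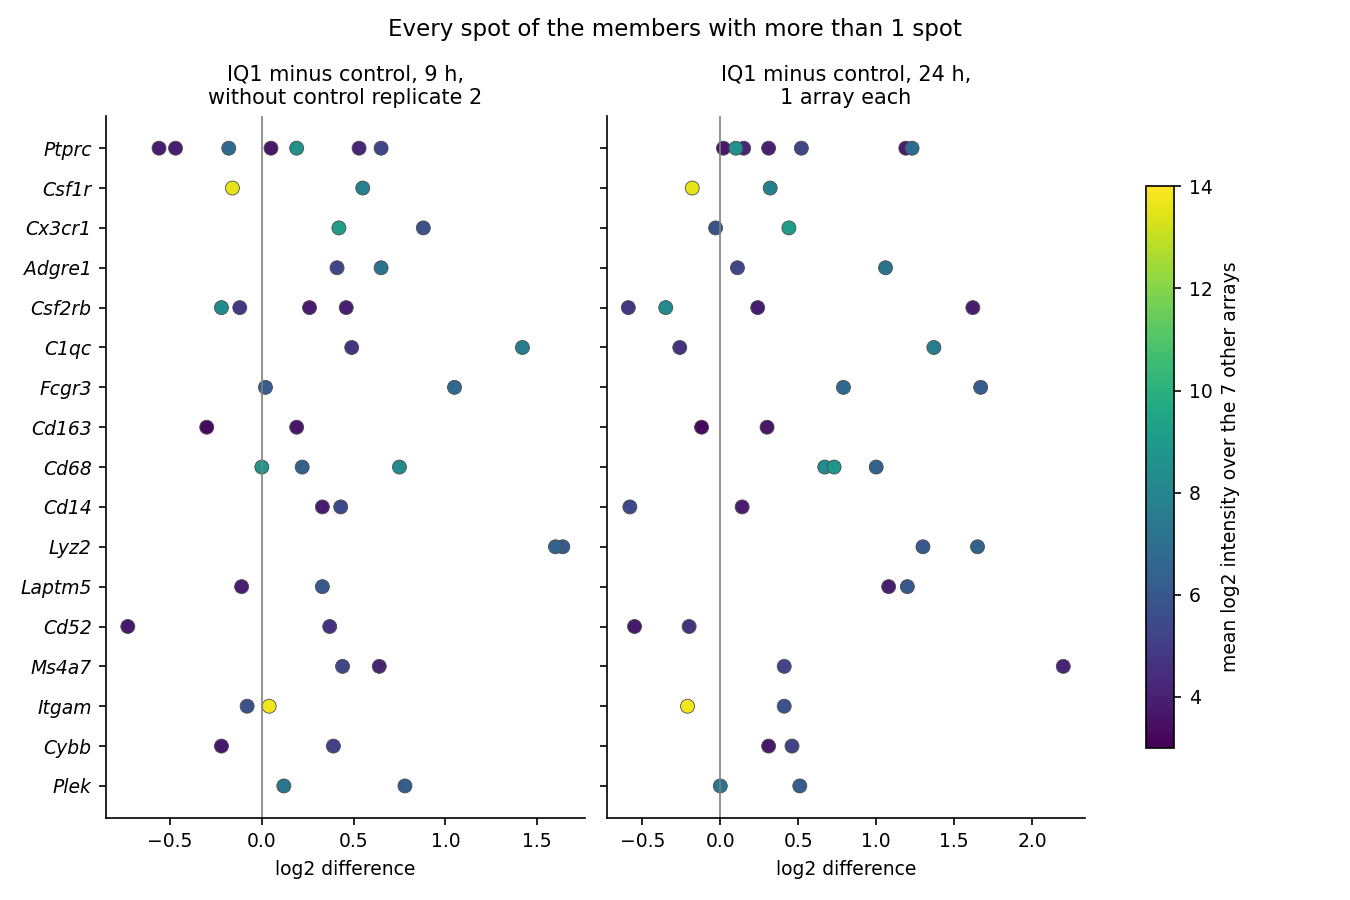
Log2 difference (x axis) of every spot of the 17 members with 2 or more spots (y axis), for IQ1 minus control at 9 h without control replicate 2 and at 24 h with 1 array each. Colour gives the mean log2 intensity of the spot over the 7 arrays other than control replicate 2. Both spots of Lyz2 lie above 1 at both times, while the bright Csf1r spot lies at -0.16 and -0.18.

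The members above the median gene and those at or below it gave similar medians. Without control replicate 2, the 17 brighter members had a median of 0.42 at 9 h and the 16 dimmer members 0.41, against 0.00 for brighter and 0.04 for dimmer genes overall. With all arrays the brighter members had 0.79 and the dimmer 0.33, against 0.44 and -0.19 for all genes of the same brightness. At 24 h the medians of the brighter and dimmer members were 0.57 and 0.67.

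Other genes of macrophages and of white blood cells in general were read from a longer list that holds none of the 33 members. Of 49 genes 46 were measured, and their medians lay below those of the members. With all arrays, 27 were higher and 19 lower with IQ1 at 9 h (median 0.26), with 4 separated upwards and 0 downwards (8.33% and 5.25% of all genes). Without control replicate 2, 26 were higher and 20 lower (median 0.08), with 6 separated upwards and 5 downwards, near the 13.1% of all genes in each direction. At 24 h 34 were higher and 12 lower (median 0.26). Among them Fyb, an adaptor of leukocyte signalling, read 8.12, 8.03 and 8.02 with IQ1 at 9 h, against 7.41, 4.49 and 7.30 in control lungs, so all IQ1 arrays were above all control arrays. Tlr2, a receptor for bacterial lipoproteins, was higher by 1.26 ± 0.31 without control replicate 2 (limma adjusted p = 0.37) and Alox5, the 5-lipoxygenase of leukotriene synthesis, was lower by 1.04 ± 0.31 (adjusted p = 0.465). With all arrays these differences were -0.47 ± 1.44 and -0.22 ± 0.76, so that of Tlr2 turned direction with control replicate 2, which read 9.00. At 24 h both were higher with IQ1, by 0.47 and 0.76.

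Signals that attract and maintain macrophages showed no common direction. Of 13 measured growth factors, chemokines and their receptors, 5 were higher and 8 lower at 9 h with all arrays (median -0.14), 8 were higher and 5 lower without control replicate 2 (median 0.03), and 5 were higher and 8 lower at 24 h (median -0.16). Ccl3, a chemokine made by activated macrophages, had all IQ1 arrays above all control arrays at 9 h (1.36 ± 0.51, limma adjusted p = 0.73, and 1.59 ± 0.44, adjusted p = 0.437, without control replicate 2) and was lower with IQ1 at 24 h by 0.78. The 14 genes of inflammatory activation, which include Tnf, Il1b and Nos2, had a median of 0.27 at 9 h with all arrays, 0.04 without control replicate 2 and -0.02 at 24 h. The 8 antigen presentation genes had medians of -0.08 in both fits at 9 h and -0.05 at 24 h. Lysosome genes used by most cells had medians of 0.27 at 9 h with all arrays, 0.25 without control replicate 2 and 0.17 at 24 h, with 9, 10 and 11 of 13 higher and none past a difference of 1 at 24 h.

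Markers of other blood cells were set beside the members. Of 4 monocyte markers, 3 were higher and 1 lower with IQ1 at 9 h with all arrays (median 1.35), while all 4 were higher without control replicate 2 (median 0.61) and at 24 h (median 0.66). F13a1, the factor XIII A chain of monocytes and fetal macrophages, read 8.17, 8.33 and 8.30 with IQ1 at 9 h, against 7.30, 4.12 and 6.52 in control lungs, and its groups did not overlap (2.29 ± 0.84, limma adjusted p = 0.73, and 1.36 ± 0.29, adjusted p = 0.308, without control replicate 2). Unlike most members it was lower in control lungs at 24 h than at 9 h, by 1.83 ± 0.39 (adjusted p = 0.299) without control replicate 2 and by 0.90 ± 1.18 (adjusted p = 0.925) with it. The 9 megakaryocyte and platelet markers, 1 of which is Pf4, had medians of 0.17 at 9 h with all arrays, 0.06 without control replicate 2 and 0.31 at 24 h. Itga2b, the platelet integrin chain, had all IQ1 arrays below all control arrays at 9 h. Its difference was -2.13 ± 1.27 (limma adjusted p = 0.73) with all arrays and -0.62 ± 0.32 (adjusted p = 0.675) without control replicate 2, which read 10.08, and 0.61 at 24 h. At 9 h the medians with all arrays were -0.39 for neutrophil, -0.21 for mast cell, -0.15 for lymphoid and 0.52 for erythroid markers. In the same order they were 0.01, 0.08, -0.02 and 0.05 without control replicate 2, and 0.42, -0.10, -0.47 and 0.09 at 24 h.

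Endothelial markers read lower with IQ1 on the same arrays. All 10 were lower with IQ1 at 9 h, with a median of -2.03 with all arrays and -2.27 without control replicate 2. Of all 24304 genes, 10400 and 11751 were lower in these 2 fits. IQ1 arrays all lay below the control arrays for 7 of the 10 with all arrays (5.25% of all genes). Without control replicate 2 this held for all 10 (13.1% of all genes). All 10 were lower by more than 1 at 24 h, with a median of -2.53, where 4.97% of all genes had a difference of -1 or less. The log2 of their summed intensity was 9.64, 9.26 and 9.71 on the IQ1 arrays at 9 h, against 11.98, 11.52 and 11.73 on the control arrays, and 9.10 with IQ1 against 11.91 in control lungs at 24 h. The 2 groups did not overlap, and no endothelial marker had a mean below the lower quartile of the arrays. None of these genes passed limma's adjusted test with all arrays or without control replicate 2. Since every array was brought to the same distribution, each value is relative to the rest of the organ, and the part of the lower endothelial signal in the higher macrophage signal was not tested.

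**Figure D4:**
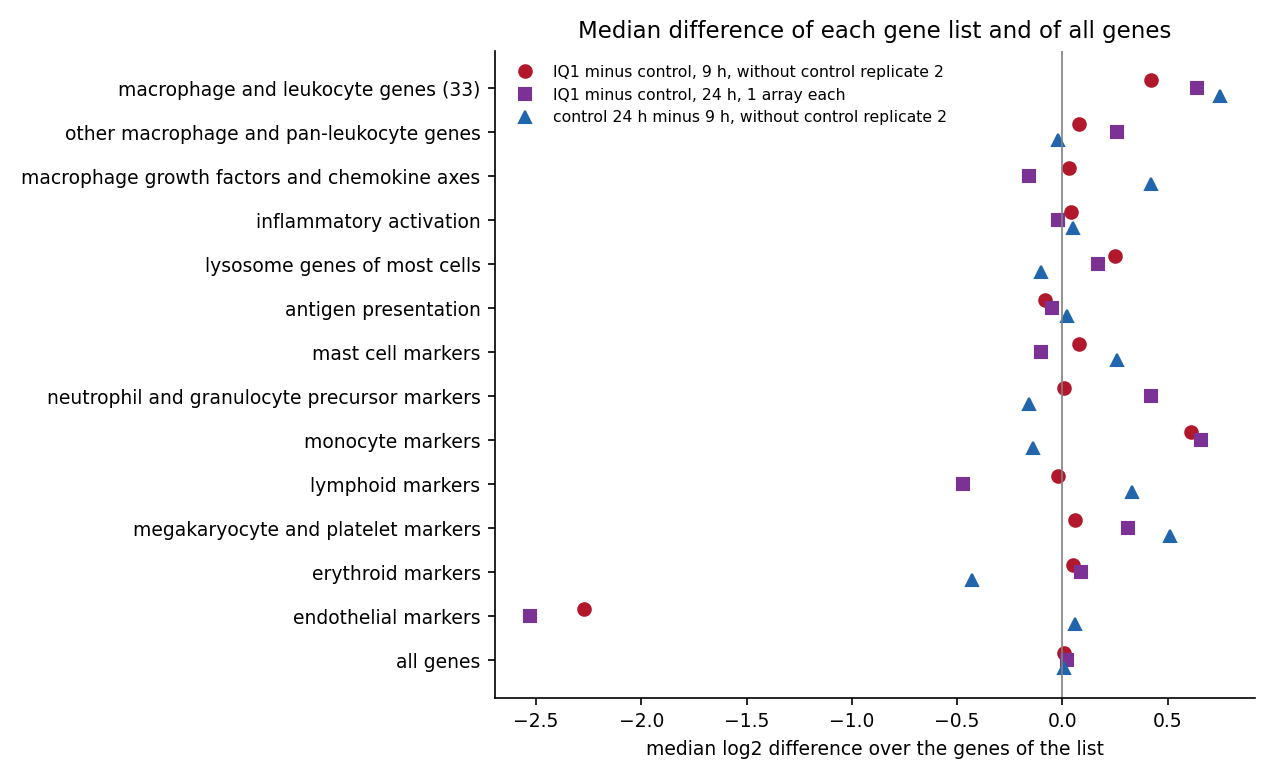
Median log2 difference (x axis) of the 33 members, of 12 further gene lists and of all genes (y axis), for IQ1 minus control at 9 h without control replicate 2 (circles), IQ1 minus control at 24 h with 1 array each (squares) and control at 24 h minus control at 9 h without control replicate 2 (triangles). The members lie at 0.42, 0.64 and 0.75, all genes near 0, and the endothelial markers at -2.27 and -2.53 in the IQ1 comparisons.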

How the data were processed

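Arrays were grouped by the treatment and time in their labels. Per the labels and methods, the authors amplified total RNA as whole-transcriptome cDNA, hybridised it to Agilent arrays, corrected background by normexp, and deposited quantile-normalised log2 intensities, 1 value per spot. Such amplification makes weak signals less certain, and quantile normalisation removes differences in total signal between arrays. The labels name the dye Cy5 and the methods Cy3. Of 62976 spots, 43941 were named through RefSeq accessions, symbols or synonyms, 8 of them with a missing value were left out, and the brightest spot per gene was kept (24304 genes).

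Differences were fitted with limma 3.58.1 in R 4.3.3 (lmFit on a means model of the 4 groups, eBayes, two-sided), with Benjamini-Hochberg adjustment over all genes and a threshold of 0.05. The script was tested on simulated data, with noise taken from the 9 h arrays other than control replicate 2 and changes larger than most seen here. That test does not cover the spread of control replicate 2 or smaller differences. No test was made at 24 h between IQ1 and control. Alternatives were the mean of all spots, genes above the median gene, array weights, a replicate block, a trended robust prior and leaving out each array. Values per array are given for members with an adjusted p under 0.05 in a tested comparison, the 5 with the smallest p in each tested fit, the 5 with the largest difference at 24 h, and Ptprc, Csf1r, Cx3cr1, Adgre1, Aif1 and Spi1. From each other list up to 3 genes with the smallest p could be named. Cd68 and Cd52 were added after their values were seen. The members and lists were chosen with earlier results of these data known. Some genes of the other lists are not reported here.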

Additional observations from a re-analysis of the deposited data

How the results depend on the processing

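The median member difference between IQ1 and control at 9 h kept its direction in every alternative tried, as did the medians at 24 h and over culture time. Leaving out 1 array at a time gave 0.42 to 0.58 for IQ1 at 9 h and 0.59 to 0.75 for control lungs at 24 h against 9 h, the values without control replicate 2 being 0.42 and 0.75. Among genes above the median gene the culture median was 0.95 and that at 9 h 0.79. With the mean of all spots they were 0.34 and 0.35, and with array weights 0.68 and 0.38. Array number and weak signals limit all of these values, and signal over background is unknown.

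The number of genes called depended on control replicate 2. For IQ1 at 9 h it was 0 to 3 and for control lungs over culture 0 to 2 when 1 array was left out, no member being called. Array weights, which gave control replicate 2 a weight of 0.0319, called 233 and 8 of 24304 genes. The 233 calls at 9 h included the members Ly86 (1.76 ± 0.31, adjusted p = 0.0493) and Pf4 (1.36 ± 0.22, adjusted p = 0.0431), hence 2 of 33 members. Without control replicate 2 and with genes above the median gene alone, 31 and 41 of 12152 genes were called. Among them was 1 of the 17 members fitted, Ly86 at 9 h (1.93 ± 0.20, adjusted p = 0.0231). Of the settings added after seeing the data, both without control replicate 2, the mean of all spots called 9 and 1 genes and the brightest spot chosen on the other arrays 3 and 2.

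Some single genes turned direction. Ly86 became 1.76 at 9 h and 1.70 over culture with array weights, and 1.93 and 1.76 in all 4 fits without control replicate 2. Csf1r at 9 h became 0.61 with the mean of all spots and 0.20 with that and without control replicate 2, and ranged from -0.21 to 0.15 when 1 array was left out. Aif1 over culture became 0.60 with array weights and 0.51 in the fits without control replicate 2. Lyz2 over culture became 0.03 with the mean of all spots, 0.19 with array weights or without control replicate 2, and 0.07 with the mean of all spots and without it. Fcgr3 over culture became -0.54 with the mean of all spots, -0.10 with array weights, -0.07 without control replicate 2 and -0.64 with the mean of all spots and without it. When 1 array was left out, the ranges were -1.36 to 1.93 (9 h) and -1.52 to 1.76 (culture) for Ly86, -0.15 to 1.26 and -0.16 to 1.24 for Cd53, -0.52 to 1.00 and -1.01 to 0.51 for Aif1, -0.95 to 0.19 for Lyz2 over culture and -0.07 to 0.84 for Fcgr3 over culture. Apart from the role of control replicate 2, the cause was not tested.

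The replicate number as a block called 0 genes at 9 h (smallest adjusted p 0.757, 315 genes at an unadjusted p under 0.05). Same-numbered arrays deviated from their group means with correlations of 0.004, -0.004 and 0.015, and not every array correlated best with its own number. The control mean used here includes control replicate 2, which shifts the deviations of all control arrays. These correlations therefore cannot decide whether the numbers pair the arrays.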
